A study of Mus musculus with 6 samples.

Results

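Splicing regulators with Srsf, Rbm or Clk symbols, the Luc7l and Srrm genes, and a few genes named singly were followed across infarcted mouse heart tissue. The genes were taken by symbol: names that begin with Srsf, Rbm or Clk and a digit, names that begin with Luc7l or Srrm, and the single names Srek1, Son, Tra2a, Tra2b, Malat1 and Neat1. This gave 61 genes of the 16199 gene symbols in the deposited table. Of these, 58 were taken by symbol, though the group itself was proposed with earlier results of these data in view. Srek1, Malat1 and Neat1 were picked because of their levels in these same libraries and are described below without a test. Over the 6 libraries, 59 of the 61 averaged 1 or more, 56 of them chosen by symbol, as did 14025 genes in all; only these were tested.

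Poly(A)-enriched RNA was sequenced from myocardium of mice whose left anterior descending coronary artery had been tied off, 3 libraries labelled Itih5 knockdown and 3 labelled wild type, all at 7 days after infarction. Both groups carried the infarct, so the comparison is between genotypes within infarcted tissue. Itih5 encodes a secreted heavy chain that binds hyaluronan, and the study asked whether it acts on scarring through the immune response. The sources used here give neither how or in which cells the knockdown was made nor the strain, sex and age of the mice. They do not say whether each library is a separate animal, so the spread behind the p-values may be technical. Values are on a scale close to TPM, a length-corrected share of the transcripts, called adjusted TPM here because the column sums run from 901563 to 1159657. Sequencing depth is unknown.

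Precursor RNA is cut and joined by the spliceosome, whose choice of splice sites is steered by SR proteins. These carry an RNA-recognition motif and a tail rich in arginine and serine. Kinases of the Clk family phosphorylate that tail in the nucleus and release SR proteins from nuclear speckles, the bodies where they are stored. Many genes of these families limit their own output: the protein promotes a splice form of its own transcript that keeps an intron in the nucleus or holds an early stop and is degraded by nonsense-mediated decay. In heart muscle, Rbm20 and Rbm24 direct the splicing of sarcomere transcripts such as that of titin.

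The promoter stretches of 5 members are shown so that the start regions of genes from 4 families and of Malat1 can be read side by side. From the Clk, Luc7l, Rbm and Srsf families each is the gene of highest level whose RefSeq window (GRCm38.p6) lies within 100 bases of the annotated gene start. Each window of 300 bases runs 5′ to 3′ on the gene's strand, with 250 bases before and 50 after the start. Clk2 lies on the plus strand of chr3:89164545-89164844, Luc7l3 on the minus strand of chr11:94321914-94322213, Rbm39 on the minus strand of chr2:156180189-156180488, Srsf5 on the plus strand of chr12:80945249-80945548 and Malat1 on the minus strand of chr19:5802623-5802922. Capitals mark the motifs found on either strand among the 7 searched.
Clk2: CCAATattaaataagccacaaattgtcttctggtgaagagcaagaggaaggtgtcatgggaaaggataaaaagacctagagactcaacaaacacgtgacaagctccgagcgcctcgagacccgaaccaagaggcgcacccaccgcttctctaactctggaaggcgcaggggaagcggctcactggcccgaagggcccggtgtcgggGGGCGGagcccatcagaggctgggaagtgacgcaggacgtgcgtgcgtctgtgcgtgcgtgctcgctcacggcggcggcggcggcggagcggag
Luc7l3: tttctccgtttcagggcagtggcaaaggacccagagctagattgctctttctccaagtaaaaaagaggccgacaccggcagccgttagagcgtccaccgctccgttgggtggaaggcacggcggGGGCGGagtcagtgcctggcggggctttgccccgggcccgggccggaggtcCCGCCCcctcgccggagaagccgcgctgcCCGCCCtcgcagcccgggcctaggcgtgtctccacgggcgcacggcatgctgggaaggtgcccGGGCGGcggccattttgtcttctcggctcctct
Rbm39: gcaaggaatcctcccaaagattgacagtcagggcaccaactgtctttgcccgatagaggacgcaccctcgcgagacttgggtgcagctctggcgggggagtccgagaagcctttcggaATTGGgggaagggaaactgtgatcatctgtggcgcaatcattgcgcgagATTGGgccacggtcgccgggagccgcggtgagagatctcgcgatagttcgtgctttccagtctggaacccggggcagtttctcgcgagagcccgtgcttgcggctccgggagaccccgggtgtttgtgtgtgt
Srsf5: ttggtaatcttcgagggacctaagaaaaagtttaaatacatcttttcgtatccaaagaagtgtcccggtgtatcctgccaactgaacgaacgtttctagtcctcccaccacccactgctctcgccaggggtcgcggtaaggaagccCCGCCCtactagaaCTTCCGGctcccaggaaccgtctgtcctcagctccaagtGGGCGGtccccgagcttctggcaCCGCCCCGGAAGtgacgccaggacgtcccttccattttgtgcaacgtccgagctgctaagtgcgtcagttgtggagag
Malat1: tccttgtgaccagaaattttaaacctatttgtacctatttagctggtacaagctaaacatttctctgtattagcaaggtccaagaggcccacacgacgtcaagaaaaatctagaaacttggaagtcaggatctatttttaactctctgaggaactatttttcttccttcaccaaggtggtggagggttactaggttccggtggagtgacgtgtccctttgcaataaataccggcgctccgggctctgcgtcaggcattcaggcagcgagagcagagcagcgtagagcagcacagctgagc
The Srsf5 window held 3 GC boxes (GGGCGG) and 2 ETS cores (CCGGAAG), the last ETS core sharing a base with the third GC box. Luc7l3 held 4 GC boxes, Clk2 held 1 GC box and 1 CCAAT box, Rbm39 held 2 CCAAT boxes, and the Malat1 window held none of the 7. The GC content was 68.7% in Luc7l3, 56.0% in Srsf5 and 47.0% in Malat1.

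Among the 50 members with a window in the table, 29 held a GC box (58%), as did 35.9% of all 27025 windows and 63% of the 10692 windows of tested genes. The ETS core was in 11 (22%), against 9.12% of all windows and 17.6% of those of tested genes. CCAAT was in 21 (42%, against 37.9% of all windows and 38.3% of those of tested genes), the NRF1 motif in 4 (8%, against 4.78% and 10%), the TATA box (TATAAA) in 6 (12%, against 14.2% and 7.56%), the cyclic AMP response element (TGACGTCA) in 2 (4%, against 1.88% and 3.11%) and the YY1 core (AAGATGG) in 5 (10%, against 6.48% and 7.07%). These matches describe letters in the window and were given no test.

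The knockdown was not visible at the RNA level. Itih5 stood at 18.4, 10.5 and 19.96 in the libraries labelled Itih5 knockdown, against 9.73, 13.1 and 17.2 in wild type (limma log2 difference 0.26, SE 0.27, adjusted p = 0.645; exact two-sided permutation p = 0.4, where 0.1 is the smallest that 3 against 3 can give). The direction of every difference below therefore refers to the labels. Heart and scar markers were present in all libraries: the sarcomere gene Tnnt2 ranged from 1209 to 2444 in knockdown and from 1011 to 1504 in wild type, and Col1a1 from 2393 to 4385 in knockdown and from 4302 to 5011 in wild type. Knockdown replicate 1 stood apart. Mitochondrially encoded transcripts made up 32.6%, 14.8% and 20.2% of the column sums of knockdown replicates 1, 2 and 3, against 13.8%, 11.5% and 10.9% in wild type. The score of 20 heart muscle markers, the mean of their log2 values after centring each gene, was 1.32, 0.21 and -0.50 in knockdown and -0.34, -0.36 and -0.33 in wild type.

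No member passed the test. With limma and Benjamini-Hochberg adjustment over all 14025 genes, 0 of the 56 tested members chosen by symbol were called, as were 0 genes in all (0%), and the smallest adjusted p of a member was 0.296. The members nonetheless leaned one way. Of the 56, 43 had a higher mean in knockdown, beside 50.8% of all tested genes, and the median log2 difference was 0.29, beside 0.005 for all tested genes. Knockdown libraries lay above all wild-type libraries without overlap for 30 of the 56, beside 12.6% of all tested genes, and below them for 2, beside 9.88%. At an unadjusted p under 0.05, 27 were higher (48.2%, beside 8.29% of all tested genes) and 1 was lower (beside 6.55%). The group was proposed with earlier results of these data in view, so these counts are a description and no list test was made.

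**Figure D1:**
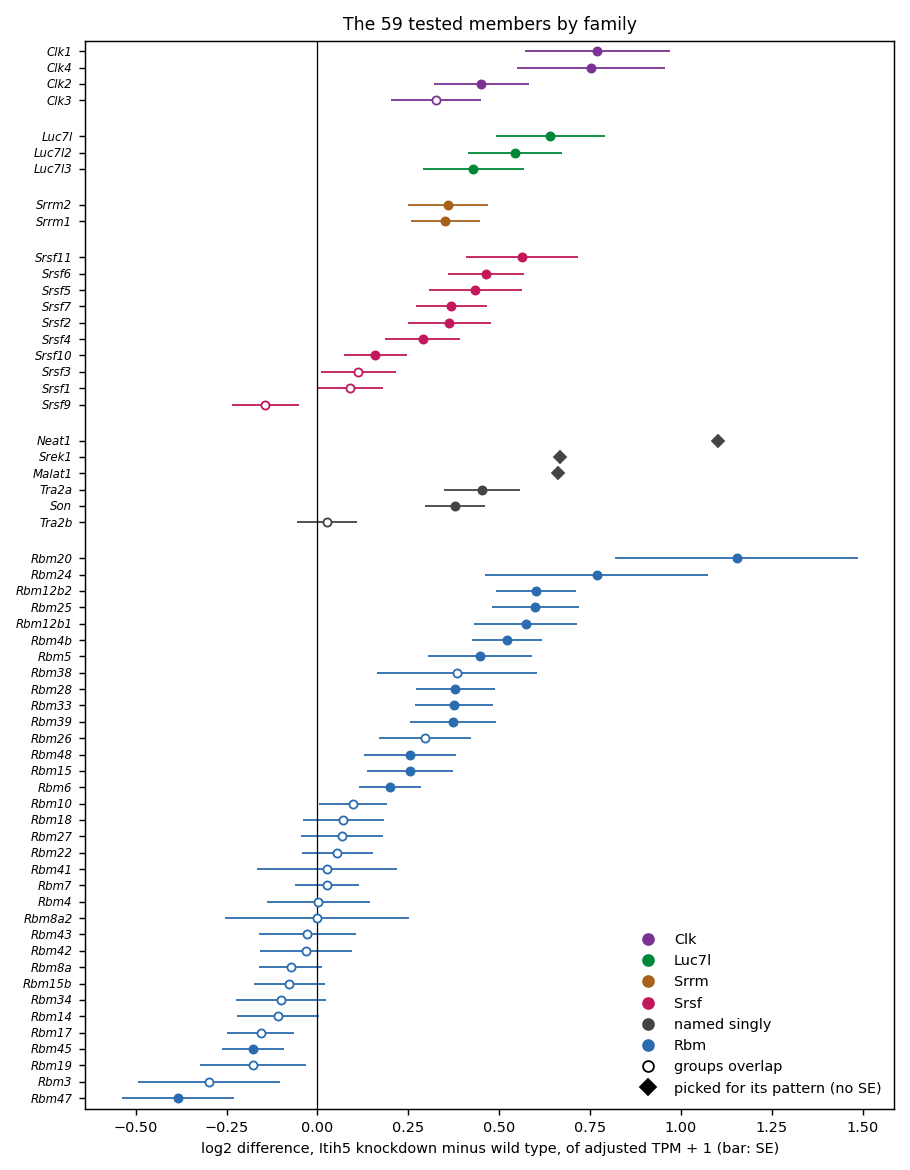
Log2 difference in adjusted TPM + 1 between Itih5 knockdown and wild type (x axis, bars show the SE of the limma fit) for the 59 tested members, ordered within their family (y axis). Open symbols mark genes whose groups overlap, and diamonds the 3 genes picked for their pattern. All Clk, Luc7l and Srrm genes lie right of 0, and Rbm genes run from -0.38 (Rbm47) to 1.153 (Rbm20).

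The size of the lean against 0, and the counts of higher members, depended on how the libraries were scaled to each other. When each column was rescaled to a sum of 1000000, the median of all tested genes moved to -0.13 and that of the members to 0.16, so the members' median relative to all genes was 0.29 in that scaling, as it was in the deposited values. On that scale 33 of the 56 members had a higher mean, against 43 in the deposited values. With rescaled columns 12 of the 56 members were higher without overlap (5.95% of all tested genes) and 11 were higher at an unadjusted p under 0.05 (3.28% of all). Among all genes at an unadjusted p under 0.05, 24.9% were higher on that scale, against 55.8% in the deposited values, 43.8% after median centring, 68.6% when adjusting for the heart muscle score and 69.7% with mitochondrial genes left out. With the mitochondrial share of each library as a covariate, which was added after the values were seen, 5 members were higher at that p (8.93%, beside 2.51% of all) and the median was 0.18. All 3 knockdown libraries had a larger mitochondrial share than any wild-type library, so that share and the group are partly tied. Adjusting for the heart muscle score, 25 were higher at that p (beside 6.07%).

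All 4 Clk kinases had a higher mean in knockdown, each at an unadjusted p under 0.05 (beside 8.29% of all tested genes). Clk1 (chromosome 1, 58410189 to 58424066, minus strand, mm10) stood at 144, 138 and 141 in knockdown, against 79.0, 112.7 and 62.4 in wild type. Clk4 (chromosome 11, 51261730 to 51281766, plus strand) stood at 73.7, 68.5 and 72.9 in knockdown, against 41.9, 57.3 and 31.0 in wild type. In both, the 3 knockdown libraries agreed closely while wild type spread widely, replicate 2 nearest to knockdown. The log2 difference was 0.77 for Clk1 (SE 0.20, limma adjusted p = 0.296) and 0.75 for Clk4 (SE 0.20, adjusted p = 0.296). Without wild-type replicate 2 the difference of Clk1 was 0.99, and without wild-type replicate 3 it was 0.57. Clk2, at 35.7, 33.75 and 39.9 in knockdown and 27.3, 30.0 and 22.3 in wild type, did not overlap either (log2 difference 0.45, SE 0.13). Clk3, at 29.9, 25.04 and 28.9 in knockdown and 21.5, 25.4 and 19.7 in wild type, overlapped (log2 difference 0.33, SE 0.12).

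The Luc7l genes, whose yeast relative is a U1 snRNP protein that helps define the 5′ splice site, gave 3 of 3 higher without overlap (beside 12.6% of all tested genes). Luc7l2 was at 154, 156 and 143 in knockdown, against 98.6, 123.0 and 90.6 in wild type (log2 difference 0.54, SE 0.13). Luc7l was at 44.9, 41.5 and 44.9 in knockdown, against 28.3, 33.8 and 22.2 in wild type (log2 difference 0.64, SE 0.15). Luc7l3 was at 69.3, 66.5 and 73.9 in knockdown, against 51.7, 61.9 and 42.9 in wild type (log2 difference 0.43, SE 0.14). Wild-type replicate 2 was again the highest of its group in all 3, and the gap to the lowest knockdown library was narrowest for Luc7l3.

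SR proteins proper were higher for most but not for all. Srsf5, the most abundant of the 10, was at 278, 272 and 306 in knockdown, against 186, 244 and 205 in wild type (log2 difference 0.43, SE 0.13). Srsf6 was at 185, 187 and 188 in knockdown, against 128, 153 and 126 in wild type (log2 difference 0.46, SE 0.11). Srsf11, an SR protein that interacts with other spliceosome proteins, was at 157, 158 and 153 in knockdown, against 98.5, 133.4 and 88.7 in wild type (log2 difference 0.56, SE 0.15). All 3 had every knockdown library above every wild-type library, and for Srsf6 and Srsf11 the knockdown libraries lay within a narrow band. Srsf7 was at 125, 119.5 and 131 in knockdown and at 91.7, 106.0 and 92.6 in wild type (log2 difference 0.37, SE 0.10), and Srsf2 had a log2 difference of 0.36 (SE 0.11). Srsf4 was low, at 8.13, 8.68 and 8.98 in knockdown and 6.83, 6.55 and 7.18 in wild type, a gap of about the rounding step of the values (0.896 to 1.168 by library). Srsf1, the founding member of the family, overlapped at 98.5, 87.6 and 93.8 in knockdown and 88.9, 83.5 and 90.2 in wild type. Srsf3 overlapped as well (log2 difference 0.11, SE 0.10), and Srsf9 had the lower mean (-0.14, SE 0.09). In all, 9 of the 10 had a higher mean (beside 50.8% of all tested genes), 7 were higher without overlap (beside 12.6%) and 6 were higher at an unadjusted p under 0.05 (beside 8.29%).

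Genes of nuclear speckle scaffolds also had higher means in knockdown. Son was at 85.6, 79.98 and 83.8 in knockdown, against 64.4, 65.7 and 61.1 in wild type (log2 difference 0.38, SE 0.08). Srrm2 was at 56.6, 52.0 and 62.9 in knockdown, against 42.9, 48.8 and 41.3 in wild type (log2 difference 0.36, SE 0.11). Srrm1, a splicing coactivator, was at 63.5, 53.9 and 55.9 in knockdown, against 46.9, 44.1 and 43.97 in wild type (log2 difference 0.35, SE 0.10). None of the 3 overlapped between the groups (beside 12.6% of all tested genes higher without overlap), and for Srrm1 the wild-type libraries lay close together. Srrm4, which acts in neurons, was at or under 1.163 in every library and was not tested.

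The paired genes Tra2a and Tra2b, SR-like activators of the same exons, gave unlike values. Tra2a was at 90.2, 90.6 and 84.8 in knockdown, against 65.4, 71.3 and 57.3 in wild type (log2 difference 0.45, SE 0.10). Tra2b was at 67.3, 69.4 and 67.9 in knockdown, against 70.3, 65.7 and 64.9 in wild type (log2 difference 0.03, SE 0.08, 95% interval -0.17 to 0.22). The Tra2b difference turned to -0.12 with rescaled columns and to -0.0024 with array quality weights, and the difference between Tra2a and Tra2b was not tested.

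Srek1, an SR-related regulator, and the nuclear long non-coding RNAs Malat1 and Neat1 were picked for these values, which are given as a description. Srek1 (chromosome 13, 103739348 to 103774608, minus strand) was at 33.4, 32.8 and 32.9 in knockdown, against 20.5, 23.4 and 17.7 in wild type, a log2 difference of 0.67. Malat1, a speckle RNA, was at 175, 140 and 167 in knockdown, against 95.6, 132.4 and 80.5 in wild type, a log2 difference of 0.66. Neat1, the gene of the RNA that scaffolds paraspeckles, was at 118, 100.3 and 106.8 in knockdown, against 56.5, 67.5 and 32.6 in wild type, a log2 difference of 1.10. The libraries were poly(A)-enriched, so any form of Malat1 or Neat1 without a poly(A) tail may be under-counted. Gene totals do not tell the forms apart. Malat1 and Neat1 both lie on the minus strand of chromosome 19, at 5795690 to 5802672 and 5824708 to 5845478, with 22035 bases between them. Both had wild-type replicate 3 lowest and wild-type replicate 2 highest of the wild type, as did Clk1 and Clk4. For Malat1 the groups came close, at 139.7 in the lowest knockdown library against 132.4 in wild-type replicate 2.

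**Figure D2:**
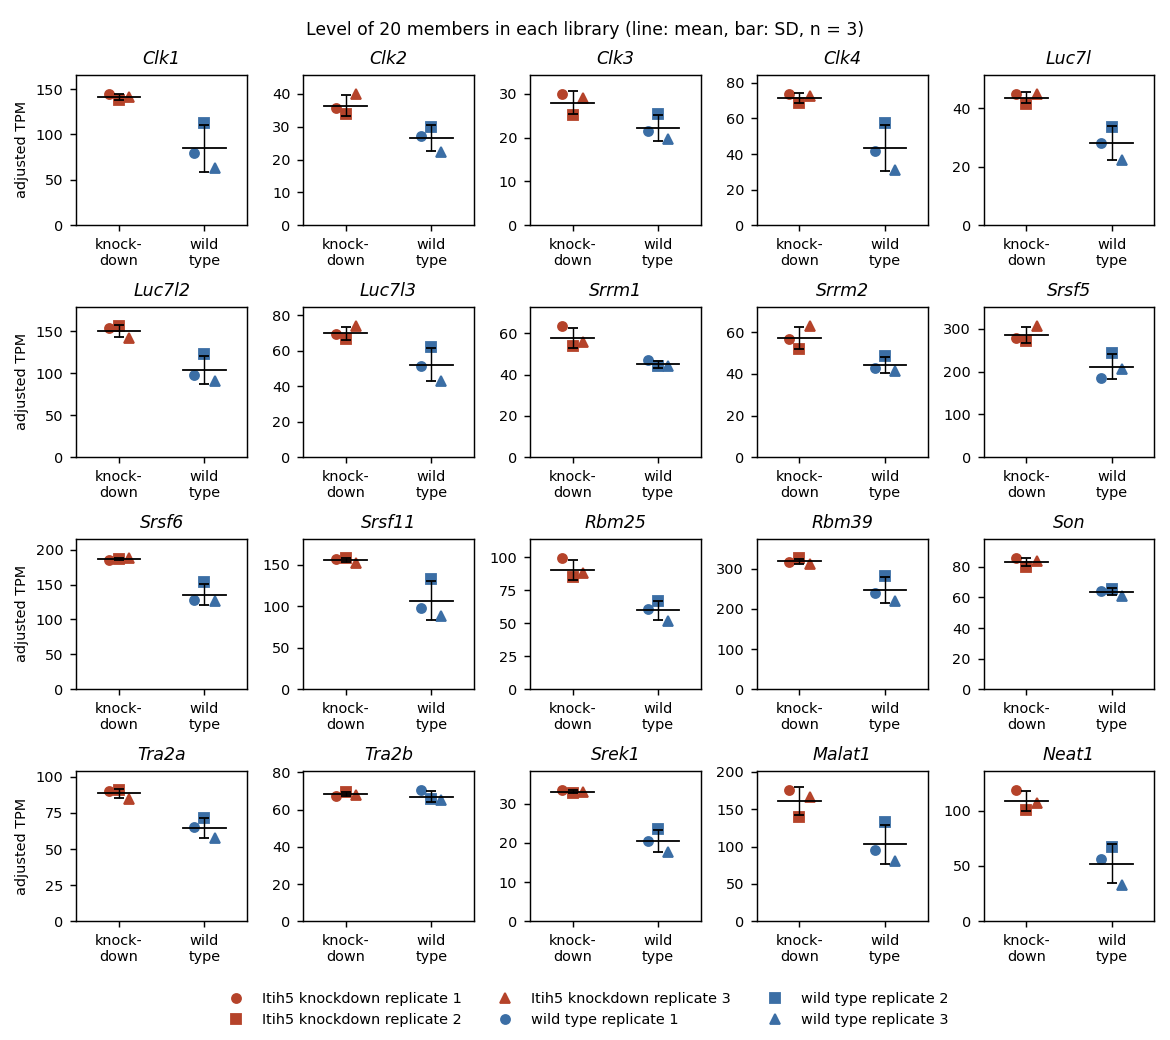
Adjusted TPM (y axes, each from 0) of 20 members in the 3 Itih5 knockdown libraries (left in each panel) and the 3 wild-type libraries (right), with mean and SD. Marker shape gives the replicate. Wild-type replicate 2 (square) is the wild-type library nearest to knockdown for Clk1, Clk4, Luc7l, Srsf11 and Malat1, and Tra2b is level between the groups.

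Rbm genes were divided. Of 34 tested, 22 had a higher and 12 a lower mean, with a median log2 difference of 0.07, and 13 were higher (beside 12.6% of all tested genes) and 2 lower (beside 9.88%) without overlap. Rbm39, a U2AF-related splicing factor and the most abundant member of all, was at 316.5, 326 and 311 in knockdown, against 240.2, 280.8 and 218.7 in wild type (log2 difference 0.37, SE 0.12). Rbm25, which in human cells affects 5′ splice site choice, was at 99.1, 84.8 and 87.8 in knockdown, against 60.5, 66.6 and 51.8 in wild type (log2 difference 0.60, SE 0.12). Both had knockdown above wild type in every library.

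The smallest 2 unadjusted p-values among Rbm genes belonged to Rbm12b2 and Rbm4b, both of low level. Rbm12b2 was at 12.7, 12.6 and 13.0 in knockdown, against 8.77, 8.38 and 7.07 in wild type (log2 difference 0.60, SE 0.11). Rbm12b1, its neighbour on chromosome 4, had a log2 difference of 0.57 (SE 0.14), and reads may be shared between these related genes. Rbm4b was at 11.6, 12.6 and 11.98 in knockdown, against 7.80, 8.42 and 8.01 in wild type (log2 difference 0.52, SE 0.10). Its relative Rbm4, an SR-interacting splicing regulator, overlapped at 9.34, 11.6 and 9.98 in knockdown and 9.75, 12.2 and 8.97 in wild type (log2 difference 0.003, SE 0.14). How reads were assigned between such relatives is not stated.

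Among other Rbm genes with a splicing role, Rbm5 and Rbm6, relatives that neighbour each other on chromosome 9, had log2 differences of 0.45 (SE 0.14) and 0.20 (SE 0.09), both without overlap. Their relative Rbm10 overlapped (0.10, SE 0.09). Rbm22, which contacts the catalytic RNA, had 0.05 (SE 0.10), and Rbm17, the splicing factor SPF45, had -0.16 (SE 0.09), at 98.7, 95.3 and 104.8 in knockdown and 110.4, 118.4 and 104.7 in wild type. Rbm8a, the exon junction protein Y14, had -0.07 (SE 0.09). Rbm45 was lower without overlap, at 30.3, 30.8 and 29.9 in knockdown against 33.2, 36.7 and 33.4 in wild type (-0.18, SE 0.08). Rbm3, the cold-induced RNA-binding protein gene, was at 88.5, 94.4 and 128.7 in knockdown and at 160.3, 111.6 and 112.1 in wild type (-0.30, SE 0.20). The groups overlapped for Rbm3, with wild-type replicate 1 above the rest. Without wild-type replicate 1 its difference was -0.13, without knockdown replicate 3 it was -0.46 and without knockdown replicate 1 it was -0.19. Its antisense gene Rbm3os was at or under 1.94 throughout and was not tested.

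Rbm20 and Rbm24, the Rbm genes of heart muscle, and their neighbours in this paragraph were singled out after their values were seen. Rbm20 was at 35.0, 16.3 and 13.0 in knockdown, against 8.77, 9.35 and 6.84 in wild type (log2 difference 1.153, SE 0.33, limma adjusted p = 0.296). Rbm24 was at 48.9, 27.9 and 18.96 in knockdown, against 17.6, 18.7 and 14.9 in wild type (log2 difference 0.77, SE 0.31, adjusted p = 0.321). Both were highest in knockdown replicate 1 and lowest of the knockdown libraries in replicate 3, the order of the heart muscle score. Rbm38, a relative of Rbm24, was at 18.2 in knockdown replicate 1 and between 8.78 and 11.0 in the other 5 libraries. Without knockdown replicate 1 the differences were 0.75 for Rbm20, 0.42 for Rbm24 and 0.13 for Rbm38, and adjusting for the heart muscle score they were 0.63, 0.28 and 0.11. Rbm47, lower at 4.74, 5.77 and 6.99 in knockdown against 8.80, 7.50 and 7.27 in wild type (-0.38, SE 0.15), was the only member lower at an unadjusted p under 0.05. In bulk tissue, fewer cells of a type and less RNA per cell cannot be told apart. All 16 macrophage markers had a lower mean in knockdown, and their summed level was 4630, 9161 and 8010 in knockdown and 12860, 9942 and 9677 in wild type. This was not particular to macrophages. All tested B cell (9), mesothelial (8) and neutrophil (7) markers also had a lower mean. All tested heart muscle (20) and erythroid (5) markers had a higher one, beside 50.8% of all tested genes. The part of any of these cell types in the differences of these Rbm genes was not tested.

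The other 16 tested Rbm genes spanned log2 differences from -0.18 (Rbm19, a nucleolar factor of ribosomal RNA processing) to 0.38 (Rbm28, also nucleolar, and Rbm33). Rbm28 was at 38.0, 33.7 and 35.9 in knockdown, against 26.3, 31.0 and 25.1 in wild type. Rbm15, of the complex that methylates adenosines in RNA, and Rbm48, of the minor spliceosome, were each higher without overlap at levels up to 8.06, where gaps come near the rounding step. Rbm26 (0.30, SE 0.13) overlapped.

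**Figure D3:**
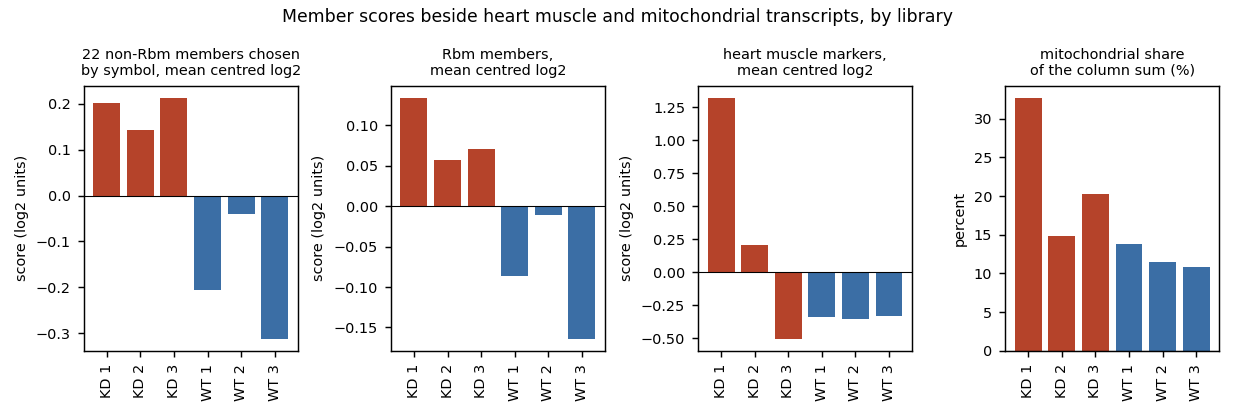
Score of members by library (mean log2 value after centring each gene, y axes in log2 units) for the 22 tested members chosen by symbol outside the Rbm family and for the Rbm genes, beside the score of 20 heart muscle markers and the mitochondrial share of the column sum. KD is Itih5 knockdown and WT wild type. The first score is 0.20, 0.14 and 0.21 in knockdown and -0.21, -0.04 and -0.31 in wild type, while the heart muscle score is 1.32, 0.21 and -0.50 in knockdown and -0.34, -0.36 and -0.33 in wild type.

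Outside the Rbm family the members varied little among knockdown libraries. Of the 22 tested members chosen by symbol outside that family, 21 had a higher mean in knockdown, Srsf9 being the exception, and 17 were higher without overlap (beside 12.6% of all tested genes). Their score was 0.20, 0.14 and 0.21 in knockdown and -0.21, -0.04 and -0.31 in wild type. The heart muscle score of the knockdown libraries ran from -0.50 to 1.32, and whether the scores are related was not tested. For the 22 members the median SD of log2 values was 0.07 in knockdown and 0.16 in wild type. Over all tested genes it was 0.18 in knockdown and 0.14 in wild type. The wild-type SD was the larger for 17 of the 22, beside 36.9% of all tested genes. Over all 56 tested members chosen by symbol, Rbm genes included, it was the larger for 38 (67.9%). Within wild type, replicate 2 was the highest library for 16 of the 22 (72.7%, beside 32.3% of all tested genes) and replicate 3 the lowest for 14 (63.6%, beside 41.3%). This order was shared by the Rbm genes. Of 34 tested, replicate 2 was the highest for 22 (64.7%) and replicate 3 the lowest for 20 (58.8%).

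Kinds of annotated transcript were counted for each gene. In the GENCODE M21 annotation, all 56 tested members chosen by symbol are protein coding, and 43 of them (76.8%) have a transcript annotated as retaining an intron, beside 58.3% of the 12860 tested protein-coding genes. A transcript marked for nonsense-mediated decay is annotated for 33 (58.9%), beside 28.1%, and both kinds for 31 (55.4%), beside 22.3%. Rbm5 has 13 intron-retaining transcripts of 24, Srsf11 has 11 of 19, and Clk1 and Clk4 have 7 each.

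The members' means were compared by this feature, as a description. Of the 31 members with both kinds of transcript, 29 had a higher mean in knockdown (median log2 difference 0.37), beside 58.3% of the 2866 tested protein-coding genes with both kinds (median 0.05). Of the 14 with a single kind, 8 had a higher mean (median 0.02), beside 47.2% of genes of that class. Of the 11 with neither, 6 had (median 0.10), beside 46.1%. Among the members this feature largely follows family. Outside the Rbm family, every tested member chosen by symbol except Srsf9 and Srsf10 has both kinds. Most members with a single kind or neither are Rbm genes. A difference by transcript kind and a difference by family were not separated. The table holds gene totals, so which transcript forms lie behind these values was not measured, and the number of annotated forms may itself follow how well a gene has been studied, which was not tested.

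**Figure D4:**
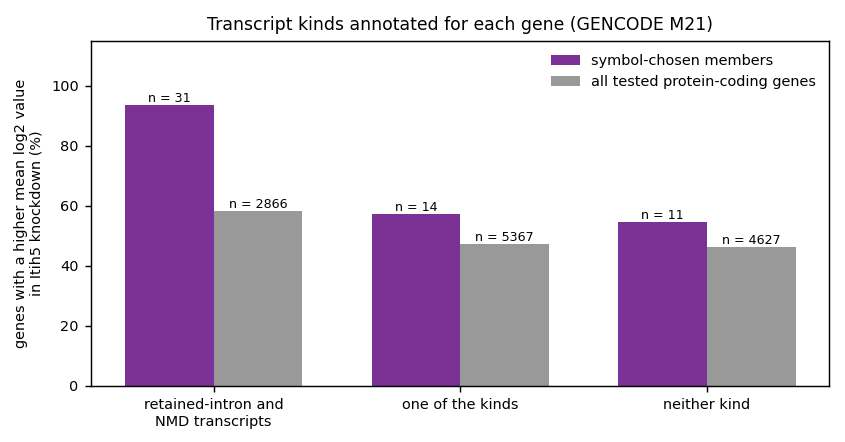
Share of genes with a higher mean log2 value in Itih5 knockdown (y axis, percent) by the kinds of transcript annotated for the gene, for tested members chosen by symbol and for all tested protein-coding genes, with the number of genes over each bar. The members with both intron-retaining and decay transcripts stand at 93.5%, and all genes of that class at 58.3%. Among the members, transcript kind largely follows family.

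Other splicing genes were followed through 8 lists of proteins. With the long non-coding RNA list described under other observations, 203 genes outside the member list were tested, of which 102 had a higher mean and the rest a lower one, with a median log2 difference of 0.001, and 0 passed the limma test. At an unadjusted p under 0.05, 31 were higher (beside 8.29% of all tested genes) and 7 lower (beside 6.55%).

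Other genes of proteins with arginine-serine tails mostly had higher means. Of 25 tested, 17 had a higher mean, 11 were higher without overlap (beside 12.6% of all tested genes) and 9 were higher at an unadjusted p under 0.05 (beside 8.29%). The median was 0.24, and 0.099 with rescaled columns. Pnisr was at 78.5, 78.1 and 82.8 in knockdown, against 44.8, 63.8 and 41.0 in wild type (log2 difference 0.69, SE 0.16). Nktr was at 14.98, 13.5 and 13.0 in knockdown, against 9.76, 9.36 and 10.7 in wild type (0.44, SE 0.10). Rsrc1 (-0.11, SE 0.12) and Scaf8 (-0.10, SE 0.09) had lower means. Among genes of paraspeckle and related proteins, 10 of 14 had a higher mean (median 0.14, and -0.0027 with rescaled columns), with the polyadenylation factor gene Cpsf7 at 0.50 (SE 0.11), whereas the paraspeckle protein Nono was lower without overlap, at 160, 173 and 174 in knockdown against 203, 186 and 195 in wild type (-0.20, SE 0.09), and Nudt21 had -0.13 (SE 0.09).

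For Sm, U1 and U2 snRNP proteins 13 of 30 had a higher mean (median -0.04), with the branch-point protein gene Sf3b1 at 0.37 (SE 0.10), U2af1l4 at 0.25 (SE 0.11), and Sf3b6 (-0.23, SE 0.10) and Snrpb (-0.23, SE 0.11) on the lower side. For proteins of the tri-snRNP and catalytic steps 16 of 50 had a higher mean (median -0.04). With rescaled columns these 2 medians were -0.18 each, and with mitochondrial genes left out they were 0.0064 for the first list and 0.0057 for the second. In that list Prpf39 was at 48.5, 50.2 and 50.9 in knockdown, against 29.2, 38.5 and 26.7 in wild type (0.66, SE 0.14), and Prpf38b had 0.42 (SE 0.16). Cdc5l was at 33.8, 33.7 and 31.9 in knockdown, against 46.95, 39.5 and 45.3 in wild type (-0.39, SE 0.10), and Snw1 had -0.43 (SE 0.12).

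For hnRNP genes, which often oppose SR proteins, 7 of 27 had a higher mean (median -0.04, -0.18 with rescaled columns and 0.0065 with mitochondrial genes left out). Hnrnph1 was at 212, 196 and 221 in knockdown, against 144.5, 159.5 and 128.5 in wild type (0.54, SE 0.11), and Hnrnph3 had 0.53 (SE 0.11). On the lower side were Hnrnpab (-0.26, SE 0.09) and the polypyrimidine tract binder Ptbp1 (-0.18, SE 0.09). In a mixed list of Rbfox, Mbnl, Celf and other splicing factors, 10 of 12 had a higher mean (median 0.07, and -0.07 with rescaled columns). The largest differences were those of Tia1 (0.60, SE 0.11) and Tial1 (0.46, SE 0.12). Tested Mbnl and Celf genes ran from 0.05 (Celf2) to 0.09 (Mbnl1). Rbfox2 (-0.06, SE 0.12) and Khdrbs1 (-0.03, SE 0.09) were on the other side. For the exon junction and decay list 6 of 13 had a higher mean (median -0.01, -0.16 with rescaled columns and 0.032 with mitochondrial genes left out), among them the decay factor genes Upf3b (0.56, SE 0.11) and Smg1 (0.28, SE 0.09), while Pym1 (-0.17, SE 0.14) and Smg6 (-0.07, SE 0.11) had lower ones. Kinases and phosphatases outside the Clk family were even, 6 of 12 each way. Prpf4b, a kinase of the spliceosome, had 0.42 (SE 0.09). Srpk3, a muscle kinase of SR proteins, was at 14.6, 5.74 and 6.99 in knockdown against 4.88, 3.71 and 4.36 in wild type (0.83, SE 0.30), highest in knockdown replicate 1 as Rbm20 was; without that library the difference was 0.47. The phosphatase gene Ppp1ca (-0.29, SE 0.11) and the SR protein importer gene Tnpo3 (-0.26, SE 0.11) had lower means.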

How the data were processed

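Poly(A)-enriched RNA of infarcted mouse myocardium was sequenced in 6 libraries, per the labels' protocols. The protocols name 2 library kits, 1 of them directional, without saying which library used which. The authors deposited a table named as TPM, whose values are an adjusted score. Columns sum to between 901563 and 1159657. Leaving out values near 0, 97.3% to 100% of values under 3.5 steps lie within 0.15 steps of whole multiples of a step. That step (0.896 to 1.168) differs by library. Knockdown replicate 1 alone held values above 0 but well under a step, 1078 of them. It listed 212 genes at 0, against 731 to 1082 in the other libraries, and the reason was not tested. Per the submitters' processing notes, the genome build was mm10. For the aligner, quantifier, annotation, strand setting and adjustment, nothing is given in the sources used here. No counts are held, so depth is unknown and no count model was used. The limma test was first chosen for TPM and was used on the score without a separate check of that choice.

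Of 16205 rows, 6 sharing a symbol were left out, keeping the highest mean. Log2(value + 1) was compared for the 14025 genes averaging 1 or more with limma 3.58.1 in R 4.3.3 (moderated test with intensity trend, two-sided, no covariate, Benjamini-Hochberg adjustment at 0.05 over all genes). Fold changes on this scale understate changes of low genes. Itih5 had an exact permutation test in scipy 1.17.1. Coordinates, transcript kinds and overlaps come from GENCODE M21, which held 16018 symbols and all 61 members. 28 of the 61 overlap a gene on the opposite strand, whose reads cannot be told apart without strand. Promoters come from RefSeq on GRCm38.p6, the same build.

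Members and lists were chosen with earlier results of these data known. Named in full were the genes named singly and, of each family, the 3 of highest level and the 3 of smallest unadjusted p, or the whole family of 6 or fewer. Of each other list, the 2 genes of smallest p in each direction were named, except 1 that is not reported here. Rbm20, Rbm24, Rbm38, Rbm47, Rbm45, Rbm4 and other Rbm genes given beside them were added after their values were seen. Alternatives covered the pseudocount, the filter, scaling, variance model, covariates, each left-out library and a replicate block.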

Additional observations from a re-analysis of the deposited data

How the results depend on the processing

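The 29 members named in full or singled out were followed over 19 other settings. Most were taken for high level or small p, and Srek1, Malat1 and Neat1, picked for their pattern, are among them. The smallest limma adjusted p among the 29 was 0.167. In all, 548 of 551 log2 differences kept their direction, which the choice of genes by their differences partly fixed in advance. The reversed ones were Tra2b with rescaled columns (-0.12) and with array quality weights (-0.0024), and Rbm38 with the mitochondrial share as a covariate (-0.19). That covariate was added after the data were seen. With it, 1 gene passed in all, 586 genes were at an unadjusted p under 0.05, 5 members chosen by symbol were, and the median was 0.18 for members and 0.045 for the other splicing lists. It also turned Itih5 (-0.042), Pym1 (0.0093), Snhg6 (0.24), Rsrc1 (0.16), Srpk3 (-0.042) and Khdrbs1 (0.098). With columns rescaled to 1000000, 14 members were at that p, 11 higher and 3 lower, beside 1849 of all 14025 tested genes. On that scale 33 of 56 members had a higher mean (43 in the deposited values). The medians were 0.16 for members and -0.14 for the other splicing lists. With mitochondrial genes left out the other splicing lists stood at 0.046. Adjusting for the heart muscle score, 1241 genes were at that p. Genes near 0 turned under several settings. Khdrbs1 was at 0.0124 with mitochondrial genes left out, 0.0119 with quantile normalization, 0.028 with array weights and 0.0048 with the heart muscle score. Snhg6 was at 0.044 with array weights and 0.072 with the heart muscle score. With each library left out in turn, Khdrbs1 ran from -0.0695 to 0.017, Snhg6 from -0.16 to 0.052 and Rbfox2 from -0.13 to 0.066, the highest without wild-type replicate 3, knockdown replicate 1 and wild-type replicate 3 in that order. The cause was not tested.

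Leaving out each library in turn, 0 to 13 genes passed in all, 998 to 2568 genes were at an unadjusted p under 0.05, and 4009 to 5433 did not overlap. The number of members at that p ran from 21 to 27, of members with a higher mean from 41 to 44, and their median from 0.24 to 0.33. The medians of the other splicing lists ran from -0.008 to 0.025. Replicate numbers are shared by the groups, but same-numbered libraries deviated together with correlations of only 0.056, 0.061 and 0.14, so the numbers were not taken as pairs. With a replicate block, 0 genes passed and 25 members were higher at an unadjusted limma p under 0.05 (44.6%, beside 7.41% of all tested genes). Rounding steps limit genes under about 10 adjusted TPM.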

Other observations

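Other long non-coding RNAs were looked at beside Malat1 and Neat1. Of 20 tested, 17 had a higher mean in Itih5 knockdown (median log2 difference 0.08, and -0.064 with columns rescaled to a common sum), 5 were higher at an unadjusted p under 0.05 (beside 8.29% of all tested genes) and 0 passed the limma test. Airn, the imprinted antisense RNA of the Igf2r locus, was at 30.8, 23.1 and 27.0 in knockdown, against 12.6, 15.9 and 12.3 in wild type (log2 difference 0.94, SE 0.14). Snhg14 was at 3.39, 1.92 and 2.00 in knockdown and at 0.97, 0.92 and 0.85 in wild type, a few rounding steps. H19, the imprinted RNA of the fetal growth locus, was lower without overlap, at 157, 246.5 and 236.5 in knockdown against 499, 315 and 483 in wild type (-1.02, SE 0.24). Snhg6, a host gene of small nucleolar RNAs, had -0.08 (SE 0.15).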
